A study of Mus musculus with 6 samples.

Results

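Markers of B-1 cells and of Tbx21-positive atypical memory B cells were followed in naive B cells isolated from the spleens of TET2 knockout and TET2 wild-type mice. The members were 10 genes named by symbol out of 41053 gene names in the table. Cd5, Bhlhe41, Zbtb32, Spn, Plscr1 and Cd300lf were taken as the B-1 markers, and Tbx21, Itgax, Zeb2 and Cxcr3 as markers of the Tbx21-positive cells. The libraries came from C57BL/6 mice, with 3 libraries labelled TET2 Knock-Out (2, 3 and 4) and 3 labelled TET2 Wild-Type (2, 3 and 4), and no treatment was given. TET2 is a dioxygenase that oxidizes 5-methylcytosine in DNA. The labels give neither the knockout allele, the age or sex of the mice, nor whether the libraries come from different animals, and the replicate spread behind each p-value may be technical.

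B-1 cells are innate-like B cells that renew themselves and secrete natural IgM, and most are found in the body cavities. In the spleen they are a minority beside conventional follicular and marginal zone B cells. Atypical memory B cells, also called age-associated B cells, express the transcription factor T-bet (Tbx21) and the integrin CD11c (Itgax), and arise where Toll-like receptor and interferon-gamma signals meet. In bulk RNA, fewer cells of a type and less RNA per cell cannot be told apart, so a level below is a level over the whole preparation.

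Library totals lay between 35101788 and 45401781 counts, and CPM is a count scaled to the normalized library total. On this scale 3 counts were 0.0679 to 0.0857 CPM. Fcer2a, which encodes the CD23 of naive follicular B cells, was abundant, at 1303 to 1933 CPM over the 6 libraries. In both genotypes library 4 stood apart, with 2011 of 13604 tested genes (14.8%) different between the libraries numbered 4 and the rest when genotype was in the model (edgeR adjusted p under 0.05). Counts of Y-linked Kdm5d were 3826 in knockout but 3 in wild type, and Xist was at 56.9% of its wild-type level in knockout. Every knockout library held both transcripts, Kdm5d at 23.3 to 34.9 CPM and Xist at 802 to 887 CPM. Whether each knockout library mixed male and female cells was not tested. Genotype and the sex of the cells therefore cannot be told apart in any comparison below. Over all its exons, Tet2 counts were 7288 in knockout and 8950 in wild type, which does not check the genotype labels because the deleted part is not given.

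All 10 markers were detected in every library at low levels. Per kilobase of exon, the wild-type order was Spn at 5.28, Plscr1 at 2.15, Zeb2 at 2.10, Cd300lf at 1.67, Tbx21 at 1.45, Zbtb32 at 0.998, Cd5 at 0.836, Bhlhe41 at 0.760, Cxcr3 at 0.384 and Itgax at 0.118 CPM per kilobase (mean, n = 3). The median over the 13604 tested genes was 7.01 CPM per kilobase, so every marker lay below it. Spn was at the 44.5th percentile of tested genes and Itgax at the 3.69th. Neighbours in this order did not all separate. Wild-type ranges overlapped between Plscr1 and Zeb2, Cd300lf and Tbx21, Zbtb32 and Cd5, Cd5 and Bhlhe41, and Bhlhe41 and Cxcr3. Exons of Zeb2 shared 458 of 19658 bases with Zeb2os on the opposite strand and 5 with the microRNA gene Mir5129, which counting without strand cannot separate, and the other 9 markers shared no exon base with another gene.

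Knockout libraries held more transcript of 7 of the 10 markers, and the differences were largest for Cxcr3, Itgax, Plscr1 and Tbx21. None of the 10 passed the threshold over all genes (edgeR quasi-likelihood test, Benjamini-Hochberg adjusted p under 0.05), where 0.404% of 13604 genes did (0.184% higher and 0.221% lower). At an unadjusted p under 0.05, 6 markers were higher and 0 lower in knockout, against 7.85% and 5.51% of all tested genes. The groups did not overlap for 5 markers, Plscr1, Cd300lf, Tbx21, Itgax and Cxcr3, all higher in knockout, against 10.2% of all tested genes, with 8.28% lower. The median log2 difference was 0.51 over the 10 markers and -0.0051 over all tested genes. DESeq2 called 3 markers higher (Plscr1, Cd300lf and Cxcr3; background 1.45%) and limma-voom 0 (background 0.331%). The markers were chosen with earlier results of these data known, so these counts describe them and test nothing about the set.

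**Figure D1:**
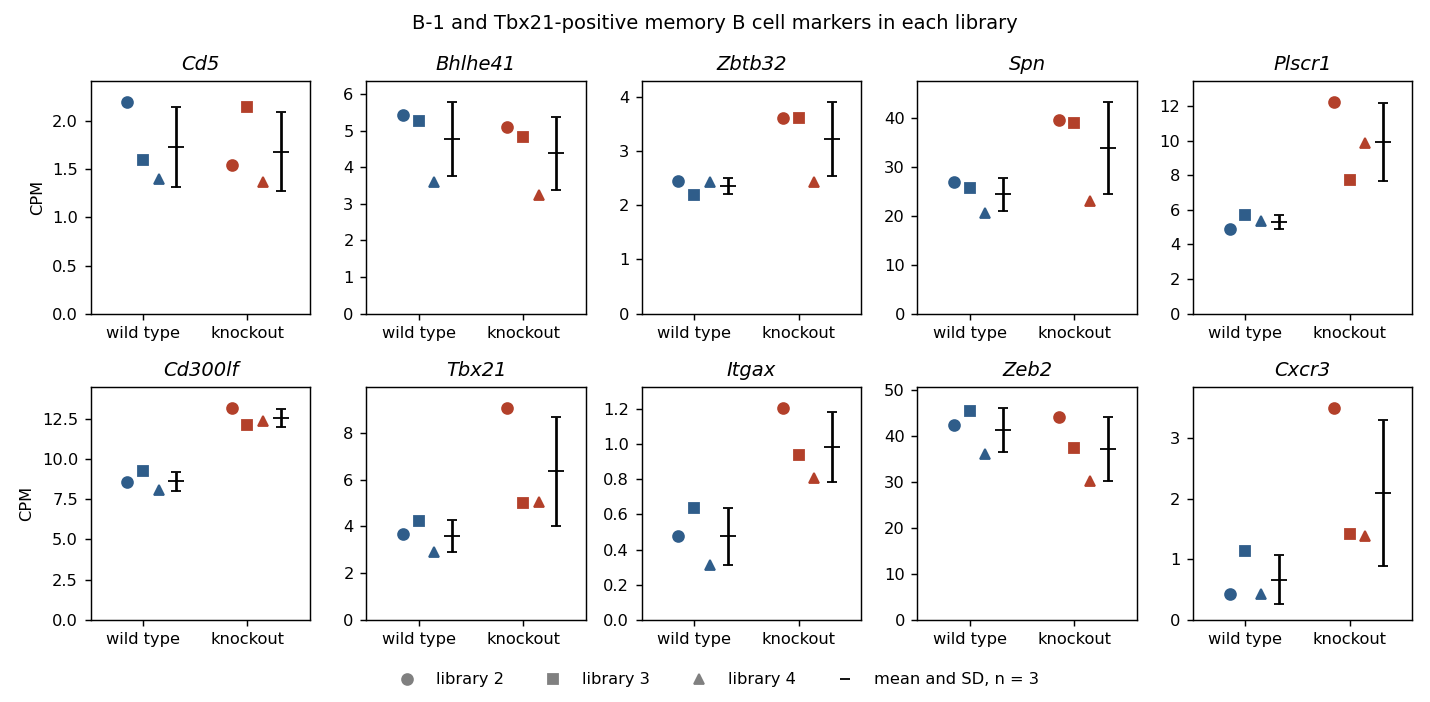
CPM of each marker (vertical axis, from 0) in the 3 wild-type (blue) and 3 knockout (red) libraries, with the mean and SD of each genotype in black and the library number as the symbol. Plscr1, Cd300lf, Tbx21, Itgax and Cxcr3 separate the genotypes, and knockout library 2 is the highest of all 6 libraries for each of these 5. The share of all tested genes highest in that library was not computed.

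Among the B-1 markers, the clearest separation was in Plscr1 and Cd300lf. Plscr1, an interferon-inducible phospholipid scramblase (chromosome 9, 92249750 to 92272278, plus strand, GRCm38), had knockout levels of 12.2, 7.70 and 9.88 CPM in libraries 2, 3 and 4, in this order here and below. Its wild-type levels were 4.89, 5.68 and 5.34 CPM. The lowest knockout library was above the highest wild-type library. The log2 difference was 0.91 (SE 0.18, 95% interval 0.50 to 1.31), 1.87-fold, with an edgeR adjusted p of 0.105. Knockout libraries were more spread than wild-type ones, with an SD of 2.26 against 0.397 CPM.

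Cd300lf encodes an immune receptor of the CD300 family, which binds lipids (chromosome 11, 115116214 to 115133992, minus strand). Its knockout levels were 13.1, 12.1 and 12.4 CPM and its wild-type levels 8.54, 9.25 and 8.05 CPM. Libraries of 1 genotype lay close together, 12.5 ± 0.548 against 8.61 ± 0.605 CPM (mean ± SD, n = 3 each). Knockout exceeded wild type by a log2 difference of 0.54 (SE 0.11, 95% interval 0.29 to 0.80; edgeR adjusted p = 0.115). This was the smallest SE among the 10 markers. With a model term for the libraries numbered 4, both Plscr1 and Cd300lf passed the threshold (edgeR adjusted p = 0.0216 and 0.0186), where 2.59% of all tested genes were called higher. They also passed without wild-type library 4 (edgeR adjusted p = 0.0335 and 0.0408; 4.53% of tested genes called higher).

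Spn encodes CD43, a sialomucin present on B-1 cells, plasma cells and T cells and scarce on resting conventional B cells (chromosome 7, 127132232 to 127137823, minus strand). It was at 39.5, 38.9 and 23.02 CPM in knockout and 26.8, 25.7 and 20.6 CPM in wild type. Knockout libraries 2 and 3 were above every wild-type library, and knockout library 4 was not. This gave a log2 difference of 0.47 (SE 0.20; edgeR adjusted p = 0.350). Spn was lower in the libraries numbered 4 of both genotypes by a log2 difference of -0.56 (edgeR adjusted p = 0.00539). With the term for these libraries Spn passed the threshold at a genotype difference of 0.45 (edgeR adjusted p = 0.0246), and it also passed without knockout library 4 (0.69, edgeR adjusted p = 0.0469; 0.424% of tested genes called higher).

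Zbtb32, a zinc-finger repressor that restrains memory B cell responses (chromosome 7, 30589681 to 30598909, minus strand), had a similar layout. It was at 3.61, 3.61 and 2.43 CPM in knockout and 2.45, 2.18 and 2.43 CPM in wild type. Knockout libraries 2 and 3 were high, and both libraries numbered 4 had the same level to 3 digits. The log2 difference was 0.45 (SE 0.20, 95% interval -0.01 to 0.91; edgeR adjusted p = 0.377).

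The remaining 2 of the 6 B-1 markers, Cd5 and Bhlhe41, had small negative log2 differences and did not separate the genotypes, whereas the 4 above had positive differences. Cd5, the surface glycoprotein that marks B-1a cells (chromosome 19, 10718143 to 10738974, minus strand), was at 1.54, 2.14 and 1.36 CPM in knockout and 2.20, 1.59 and 1.40 CPM in wild type. The ranges overlapped almost completely. For Cd5 the log2 difference was -0.04 (SE 0.26), with a 95% interval of -0.63 to 0.54, which allows from 0.648-fold to 1.45-fold (edgeR adjusted p = 0.961). Its sign turned in 3 fits that left out 1 library. Bhlhe41, a basic helix-loop-helix repressor needed for B-1 cell development (chromosome 6, 145858243 to 145865558, minus strand), was at 5.09, 4.81 and 3.23 CPM in knockout. It was at 5.44, 5.25 and 3.60 CPM in wild type. The low value in each genotype was library 4, a difference that passed the threshold between the libraries numbered 4 and the others (log2 -0.59, edgeR adjusted p = 0.0206). Between genotypes the log2 difference was -0.12 (95% interval -0.63 to 0.38; edgeR adjusted p = 0.846), and its sign turned without knockout library 4.

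In the second set, the genotypes did not overlap for Tbx21, Itgax and Cxcr3 and overlapped for Zeb2. Tbx21, the T-box transcription factor T-bet (chromosome 11, 97098071 to 97115331, minus strand), was at 9.06, 4.98 and 5.03 CPM in knockout and 3.69, 4.23 and 2.88 CPM in wild type. The genotypes did not overlap, and knockout library 2 was 1.81 times the mean of the other knockout libraries. The log2 difference was 0.82 (SE 0.26, 95% interval 0.23 to 1.41; edgeR adjusted p = 0.254). Without knockout library 2 it was 0.47 (edgeR adjusted p = 0.799).

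Itgax encodes CD11c, the integrin alpha chain used to sort age-associated B cells and also carried by dendritic cells (chromosome 7, 128129547 to 128150656, plus strand). Its counts were 53, 39 and 32 in knockout and 21, 28 and 11 in wild type, or 1.20, 0.939 and 0.809 against 0.476, 0.637 and 0.314 CPM. The genotypes did not overlap, on few counts. This gave a log2 difference of 1.03 (SE 0.32, 95% interval 0.31 to 1.75; edgeR adjusted p = 0.247), and 0.86 without knockout library 2.

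Cxcr3, an X-linked receptor for interferon-inducible chemokines and a known target of T-bet (chromosome X, 101731535 to 101734269, minus strand), was at 3.50, 1.42 and 1.39 CPM in knockout and 0.430, 1.14 and 0.428 CPM in wild type. Every knockout library was above every wild-type library, but knockout libraries 3 and 4 were near wild-type library 3. On the log2 scale the difference was 1.64 (SE 0.49, 95% interval 0.55 to 2.74; edgeR adjusted p = 0.222). Without knockout library 2 it was 1.06 (edgeR adjusted p = 0.785), a change of the fold from 3.16 to 2.11 on the ratio of mean CPM. Without wild-type library 3 the log2 difference was 2.28 (edgeR adjusted p = 0.269). DESeq2 called it with all libraries (DESeq2 adjusted p = 0.0352).

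Zeb2, a zinc-finger and homeodomain transcription factor required for age-associated B cells and also expressed in myeloid and NK cells (chromosome 2, 44983634 to 45117395, minus strand), was at 44.0, 37.2 and 30.1 CPM in knockout and 42.3, 45.3 and 36.0 CPM in wild type. The ranges overlapped. On the log2 scale the difference was -0.15 (SE 0.14, 95% interval -0.47 to 0.17; edgeR adjusted p = 0.673), whose upper bound is 1.12-fold. The libraries numbered 4 were lower in both genotypes (log2 -0.36, edgeR adjusted p = 0.0206).

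For the 5 markers whose groups did not overlap, the sign of the difference within libraries 2 and 3 and within the libraries numbered 4 is fixed by that choice, and only the sizes are described. Computed from libraries 2 and 3 alone, and from the libraries numbered 4 alone, the log2 ratio of CPM was 0.91 and 0.89 for Plscr1, 0.50 and 0.62 for Cd300lf, 0.83 and 0.80 for Tbx21, 0.95 and 1.36 for Itgax, and 1.65 and 1.70 for Cxcr3. Spn and Zbtb32 differed in libraries 2 and 3, by 0.58 and 0.64, more than in the libraries numbered 4, at 0.16 and -0.00055. With 1 library per genotype the values from the libraries numbered 4 have no replicate check. In libraries 2 and 3 alone, edgeR called 5 markers higher, Zbtb32, Spn, Plscr1, Cd300lf and Itgax, where 13.6% of 13800 tested genes were called higher.

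**Figure D2:**
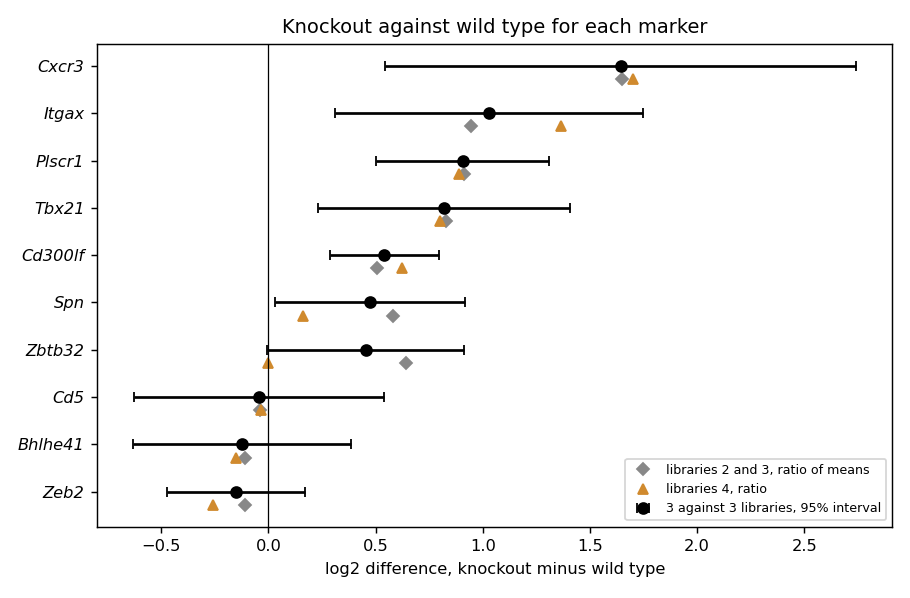
Log2 difference of each marker, knockout minus wild type, on the horizontal axis: black points with 95% intervals are from the edgeR fit of 3 against 3 libraries, grey diamonds are from libraries 2 and 3 (ratio of mean CPM) and orange triangles from the libraries numbered 4. Intervals of Cd5, Bhlhe41, Zeb2 and Zbtb32 include 0, and Cxcr3 has the widest interval (0.55 to 2.74).

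The order of the 6 libraries was identical for Itgax and Cxcr3: knockout 2, 3 and 4, then wild type 3, 2 and 4. Tbx21 had the same order except that knockout libraries 3 and 4, at 4.98 and 5.03 CPM, changed places, and the B-1 marker Cd300lf had the order of Tbx21. Plscr1 differed from that order in the places of wild-type libraries 2 and 4. These are the 5 markers without overlap, so knockout before wild type was fixed by that choice. The share of all tested genes with such an order was not computed. Over these 6 libraries, the 3 tested genes whose centred log2 CPM lay nearest to Cxcr3 were Serpina3g, a serine protease inhibitor, and the GTPase genes Gbp6 and Tgtp2, at root mean square distances of 0.0891, 0.154 and 0.162. Their log2 differences lay between 1.28 and 1.52 (edgeR adjusted p = 0.254, 0.163 and 0.154). Nearest to Tbx21 were the kinase gene Camkk1, the cytokine gene Csf1 and the GTPase gene Gbp5, at 0.112, 0.132 and 0.140. Nearest to Plscr1 were Ifi44l, the phospholipase gene Pla2g16 and Dnaaf3, a dynein assembly factor, at 0.105, 0.124 and 0.134. Of these 9 genes, Ifi44l passed the threshold (log2 0.93, edgeR adjusted p = 0.0435). These matches over 6 libraries are given as a description.

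Sequence just upstream of the RefSeq start is shown for 3 markers that were higher in knockout, at the unadjusted threshold, and whose window holds none of the gene's counted exons. It is given because TET2 acts on methylated CpG sites, and capitals mark each CG dinucleotide (RefSeq, GRCm38.p6, 250 bases, 5′ to 3′ on the gene's strand). The windows are chr11:97115332-97115581 for Tbx21, chr11:115133993-115134242 for Cd300lf and chr7:127137824-127138073 for Spn, all on the minus strand.
Tbx21: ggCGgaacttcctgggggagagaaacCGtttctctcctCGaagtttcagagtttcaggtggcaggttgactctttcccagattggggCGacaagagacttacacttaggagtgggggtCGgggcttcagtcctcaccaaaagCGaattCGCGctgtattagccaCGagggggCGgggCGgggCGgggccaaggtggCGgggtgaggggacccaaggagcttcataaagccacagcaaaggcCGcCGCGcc
Cd300lf: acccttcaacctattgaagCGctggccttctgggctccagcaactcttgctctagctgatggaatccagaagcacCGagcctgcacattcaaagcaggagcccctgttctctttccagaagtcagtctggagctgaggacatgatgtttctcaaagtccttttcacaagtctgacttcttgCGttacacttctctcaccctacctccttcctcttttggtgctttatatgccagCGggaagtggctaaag
Spn: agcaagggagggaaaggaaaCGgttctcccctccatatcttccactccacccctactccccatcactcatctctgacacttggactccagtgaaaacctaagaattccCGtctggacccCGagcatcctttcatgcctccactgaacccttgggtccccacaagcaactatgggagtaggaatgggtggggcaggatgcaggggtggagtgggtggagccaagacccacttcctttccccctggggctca
The Tbx21 window holds 16 CG dinucleotides, the Cd300lf window 4 and the Spn window 3. Over 32807 promoter windows of this length the median was 6. Of the 10 markers, 7 had at most 5 in the window nearest to the start of the counted gene, and 49.65% of all windows did. Bhlhe41 had 31, Tbx21 16 and Zeb2 9. Motifs were sought on both strands in the same windows. Only 6 of these 10 windows held none of the gene's counted exons. The RefSeq start of Plscr1 lay 444 bases inside the counted gene, and all 250 bases of its window were counted exon. Sequence upstream of its counted start was therefore not searched. Counted exon also made 138 bases of the Bhlhe41 window and 122 of the Cxcr3 window. The interferon-stimulated response element (GAAA, any pair of bases, GAAA) was in 0 of the 10 markers' windows and in 2.97% of all windows, and the T-box sequence GGTGTGA in 0 and in 3.33%. The E-box CACGTG was in 1, that of Bhlhe41, which itself belongs to a family that binds this E-box, and in 6.02% of all windows. No methylation was measured here.

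Other genes of the B-1 programme were taken from a list of 18, of which 15 were tested. Ptpn22, a tyrosine phosphatase that restrains antigen receptor signalling, rose from 36.7 ± 1.02 to 60.1 ± 6.96 CPM (n = 3 each; log2 0.71, edgeR adjusted p = 0.0195), and 0 members fell. Over all tested genes 0.184% were called higher and 0.221% lower. The list had 11 of 15 positive log2 differences with a median of 0.27, beside 48.8% positive and a median of -0.0051 over all tested genes. The B-1 genes Itgam, Il5ra and Cd9 had log2 differences of -0.02, 0.28 and 0.31 without passing the threshold (edgeR adjusted p = 0.989, 0.614 and 0.353). Arid3a, which with Lin28b belongs to the fetal B-1 programme, was at 40.0 to 45.4 CPM in knockout and 44.0 to 45.5 CPM in wild type, and Lin28b had 0 counts in every library.

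Of 19 further genes of Tbx21-positive and memory B cells, all tested, 15 had a positive log2 difference, with a median of 0.24. Over all tested genes 48.8% were positive, with a median of -0.0051. Cd86, which encodes a costimulatory ligand for CD28, rose (log2 0.90, edgeR adjusted p = 0.0309) and 0 fell. Of all tested genes 0.184% were called higher and 0.221% lower. Immunoglobulin constant regions of switched isotypes are part of this list. Ighg2c, the isotype whose switching T-bet promotes, was at 36.9, 4.07 and 0.556 CPM in knockout and 0.498, 4.82 and 0.0857 CPM in wild type. Knockout library 2 was far above the other 5, the genotypes overlapped, and the log2 difference of 2.91 had an SE of 1.84 (edgeR adjusted p = 0.553). Ighg2b was at 18.1, 20.6 and 11.52 CPM in knockout and 5.32, 9.80 and 2.97 CPM in wild type (log2 1.46, edgeR adjusted p = 0.215), and the genotypes did not overlap. Ighg3 differed by 0.93 (edgeR adjusted p = 0.0928). These last 2 passed with the term for the libraries numbered 4 (edgeR adjusted p = 0.0294 and 0.00990), where 2.59% of all tested genes were called higher. Of the receptors and signal genes of the list, Tlr7 was at 88.7 to 99.6 CPM in knockout and 71.8 to 91.5 CPM in wild type (edgeR adjusted p = 0.317), and Il21r differed by 0.20 (edgeR adjusted p = 0.561).

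Genes upstream of Tbx21 and around Cxcr3 made a list of 17, of which 13 were tested. None passed the threshold (edgeR), 4 had an unadjusted p under 0.05, all higher in knockout, beside 7.85% of all tested genes. DESeq2 called 2 higher, beside 1.45%, and limma-voom 0, beside 0.331%. The median log2 difference was 0.16, with 11 of 13 positive beside 48.8% of all tested genes. Il12rb1, a chain of the interleukin-12 receptor, was at 11.2, 5.75 and 4.52 CPM in knockout and 3.10, 4.55 and 2.06 CPM in wild type. Irf1, an interferon-inducible transcription factor, was at 336, 217 and 236 CPM in knockout and 169, 208 and 166 CPM in wild type. For both genes knockout library 2 was the highest (edgeR adjusted p = 0.256 and 0.224). The receptor genes for interferon-gamma did not follow, with Ifngr1 at a log2 difference of 0.03 and Ifngr2 at 0.02 (edgeR adjusted p = 0.921 and 0.965). Ifng itself was at most 0.343 CPM in any library and the chemokine gene Cxcl9 at most 0.295 CPM, and for both the genotypes overlapped. The chemokine gene Cxcl10 was at 0.636, 0.313 and 0.227 CPM in knockout and 0.113, 0.205 and 0.143 CPM in wild type. Its genotypes did not overlap, on 50 and 19 counts, as for 10.2% of all tested genes higher in knockout. Cxcl9 and Cxcl10 were not tested.

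**Figure D3:**
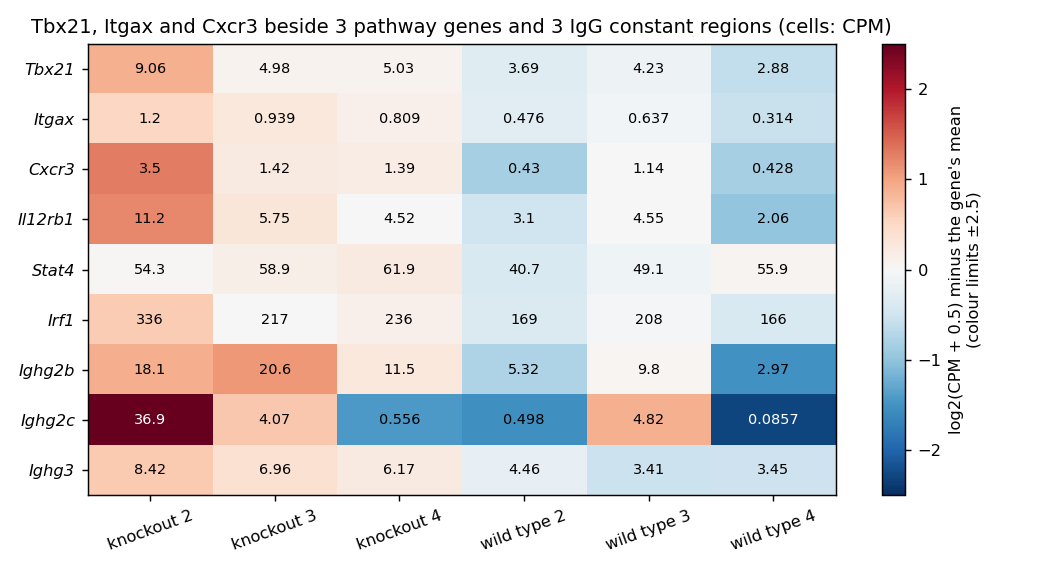
Colour gives log2(CPM + 0.5) minus the gene's mean over the 6 libraries, with colour limits at ±2.5, and the number in each cell is the CPM. Tbx21, Itgax and Cxcr3 are shown with Il12rb1, Stat4 and Irf1 of the list around Tbx21, each with an unadjusted p under 0.05, and with 3 IgG constant regions. Knockout library 2 is the highest for 7 of the 9, at 36.9 CPM for Ighg2c. The 9 genes were picked with their values in view, and the share of all tested genes highest in that library was not computed.

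Interferon-stimulated genes, the class to which Plscr1 belongs, were higher in knockout in 23 of 24 tested, with a median log2 difference of 0.48. Ifi44 and Ifi44l rose (log2 1.14 and 0.93, edgeR adjusted p = 0.0432 and 0.0435), 0 fell, and 20 had an unadjusted p under 0.05, all higher, beside 0.184% and 7.85% of all tested genes called higher by these rules. DESeq2 called 13 of the 24 higher, beside 1.45% of all tested genes, and limma-voom 0. Plscr1, at 0.91, lay within the range of these genes. The summed CPM of the list was 1293 to 1573 in knockout and 1063 to 1174 in wild type.

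Several markers are also expressed outside B cells, so defining genes of other cells were read in the same libraries. Cd3e, a chain of the T cell receptor complex, was at most 0.0722 CPM in any library and Cd4 at most 0.241 CPM. Cd3d was at 0.636, 0.361 and 0.278 CPM in knockout and 0.159, 0.227 and 0.257 CPM in wild type, and knockout library 2 was the highest. The T cell list of 14 summed to 297 to 325 CPM in knockout and 263 to 294 CPM in wild type, of which Cd2 made 207 to 266 CPM and Lck 46.2 to 64.8 CPM, and 6 of its genes were tested. The NK cell list of 10 summed to 2.15 to 3.25 and 2.48 to 2.49 CPM, with Ncr1 at most 0.159 CPM and 3 genes tested. Klrd1, which encodes the receptor chain CD94, was at 0.704, 0.650 and 0.708 CPM in knockout and 0.430, 0.205 and 0.457 CPM in wild type (log2 0.93, edgeR adjusted p = 0.308). Klrb1c, which encodes NK1.1, was at 0.386, 0.457 and 0.303 CPM in knockout and 0.0906, 0.296 and 0.171 CPM in wild type (log2 1.03, edgeR adjusted p = 0.369). For both the genotypes did not overlap, with knockout higher, as for Tbx21, Itgax and Cxcr3 and for 10.2% of all tested genes. Of the T cell list, Cd3d and Cd2 were also higher in knockout without overlap. Zap70 of that list was lower without overlap, as were 8.28% of all tested genes. Klrb1c rested on 4 to 19 counts per library. Eomes, with 12 counts in knockout and 19 in wild type, was not tested. Prf1 (perforin), with the largest share of the NK list's sum in every library, had a log2 difference of -0.32 (edgeR adjusted p = 0.584). The dendritic cell list of 9 summed to 6.19 to 6.70 and 5.32 to 6.64 CPM, with 5 tested, and Clec9a was at most 0.0909 CPM. Over the 6 libraries Flt3 was at 1.94 to 2.84 CPM and Zbtb46 at 0.963 to 2.27 CPM, beside 0.314 to 1.20 CPM for Itgax. Flt3 and Zbtb46 had log2 differences of 0.10 and 0.33 (edgeR adjusted p = 0.869 and 0.687). Monocyte and macrophage genes, 9 matched by symbol, summed to 17.6 to 25.8 CPM in knockout and 23.01 to 30.3 CPM in wild type, with 0 of 7 tested members positive. The neutrophil list summed to at most 0.963 CPM with Elane at 0 counts, the list of erythroid and platelet genes to 12.03 to 18.04 and 10.8 to 23.3 CPM, and that of plasma cells to 392 to 444 and 415 to 465 CPM. Of the plasma cell sum, Irf4 made 229 to 319 CPM and Xbp1 108 to 150 CPM over the 6 libraries. Igj was the 1 positive gene of the 5 tested in that list (log2 1.31, edgeR adjusted p = 0.325). It was highest in knockout library 2, at 32.9 CPM. The list of conventional B cell genes, 15 matched by symbol, summed to 23344 to 26717 and 21940 to 23487 CPM. None of the 47 tested genes of these 8 lists passed the threshold (edgeR), 9 had an unadjusted p under 0.05 in either direction, beside 13.4% of all tested genes. DESeq2 called 3 lower, beside 1.12%, and limma-voom 0. The part of other cells in the levels of Tbx21, Itgax, Cxcr3, Spn and Zeb2 was not tested.

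**Figure D4:**
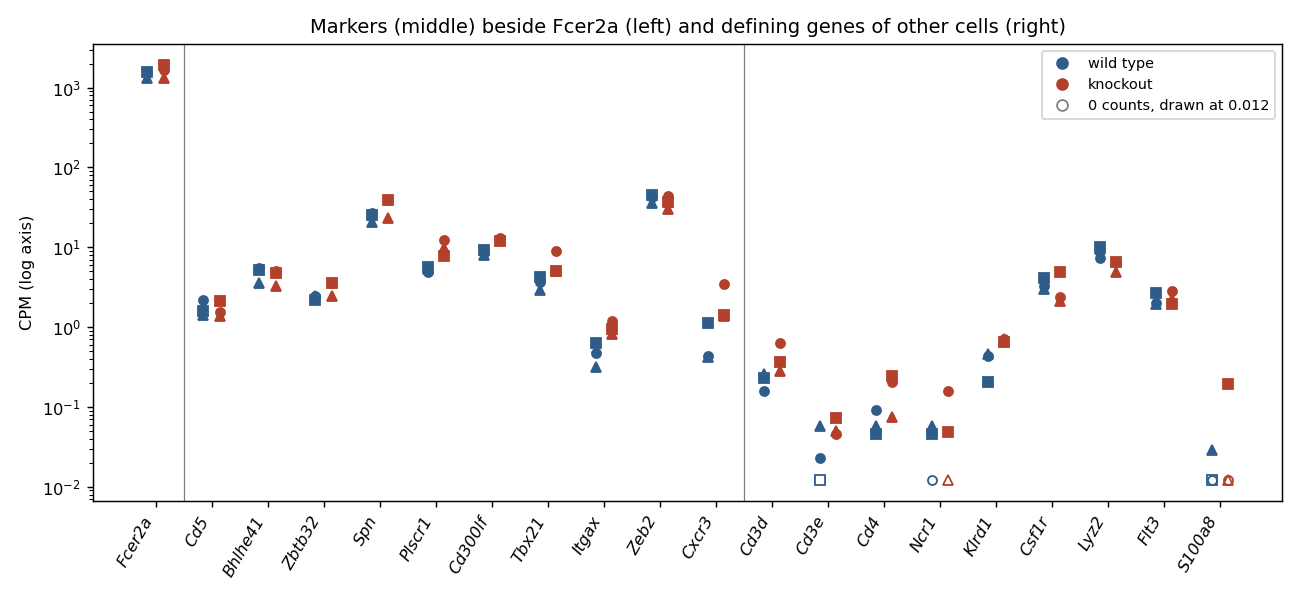
CPM on a log axis in wild-type (blue, left of each pair) and knockout (red) libraries, with the library number as the symbol as in the plot of markers by library and open symbols for 0 counts, drawn at 0.012. The 10 markers in the middle lie between 0.314 and 45.3 CPM, below Fcer2a on the left. On the right, Cd3e, Cd4 and S100a8 stay under 0.25 CPM. Lyz2 (4.93 to 10.1 CPM), Csf1r (2.12 to 4.89 CPM) and Flt3 (1.94 to 2.84 CPM) lie within the range of the markers.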

How the data were processed

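The authors deposited raw counts of fragments, as whole numbers per gene symbol. Per the file headers they were made with featureCounts 1.5.1 over exons of a GENCODE annotation of GRCm38, with paired fragments and no strand option. Libraries were stranded mRNA libraries, per the labels, and STAR 2.3.0e and the build GRCm38.p3 are named in the submitters' processing notes. Summed exon length (in bases), another deposited value, gave CPM per kilobase. The table held 6 further count columns that match no sample here and were not used.

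Library sizes were normalized by TMM. Of 41053 gene names, 13604 passed filterByExpr (minimum count 10), all 10 markers among them. The genotypes were compared with the quasi-likelihood test of edgeR (edgeR 4.0.16, limma 3.58.1, R 4.3.3) without covariate, with Benjamini-Hochberg adjustment over all tested genes and a threshold of 0.05. SE was the log2 difference over the root of F. The test was checked on simulated counts that held no difference between the libraries numbered 4 and the rest, so the check does not cover that difference. Alternatives were other normalizations, filters and tests (DESeq2 1.42.0, limma-voom), a replicate block, a term for the libraries numbered 4, fewer libraries and no X or Y genes. Profile distance used log2(CPM + 0.5). Promoters came from RefSeq (GRCm38.p6), with all 10 markers matched by symbol.

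The members, lists and alternatives were chosen with earlier results of these data known. The text names the members, list genes past the threshold and, for the 3 members with the largest SD of log2 CPM, the 3 nearest genes with a mean log2 CPM of at least 1; other list genes were named after their values were seen. Some genes counted in the lists are not reported here by name.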

Additional observations from a re-analysis of the deposited data

How the results depend on the processing

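No marker passed the threshold in the edgeR fit of 3 against 3 libraries without covariate. The count of markers called, all higher in knockout, was 2 without a filter beyond 1 count and 3 with DESeq2. It was 3 with the term for the libraries numbered 4 and 5 in libraries 2 and 3 alone. In these 4 settings 0.695% of 23019, 1.45% of 13604, 2.59% of 13604 and 13.6% of 13800 tested genes were called higher. The count of markers was 0 to 2 over the 6 fits that left out 1 library, with 2 without wild-type library 4 and 1 without knockout library 4. All genes called in either direction, 55 in all libraries, were 262, 349, 599 and 3307 in the first 4 of these settings. With 1 library left out they were 17 to 900, lowest without knockout library 2 and highest without wild-type library 4. The replicate block gave 85 genes and 0 markers. The numbers were not taken to pair the libraries, since not every pair correlated over 0.1: the deviations of libraries numbered 2 correlated at 0.0750, those numbered 3 at 0.278 and those numbered 4 at 0.448, and knockout library 2 correlated best with wild-type library 3 (0.300). Over 178 values of single markers under 18 alternatives, 4 turned sign. With 1 library left out, the log2 difference of Cd5 ranged from -0.25 to 0.17 and that of Bhlhe41 from -0.28 to 0.052. The fit without X and Y genes gave no value for Cxcr3, and that with at least 1 CPM in 3 libraries none for Itgax. The cause of these shifts was not tested. Itgax and Cxcr3 rest on 11 to 154 counts per library.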

Other observations

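Other genes of the fixed lists differed in mean level between the genotypes without passing the threshold. Zap70, a kinase best known from T cell receptor signalling, had levels of 0.840, 0.506 and 0.859 CPM in knockout (libraries 2, 3 and 4) against 2.36, 1.64 and 2.03 CPM in wild type, with no overlap (log2 -1.45, edgeR adjusted p = 0.0826; 0.0166 with the term for the libraries numbered 4). Klf2, a transcription factor of lymphocyte quiescence, was at 355, 336 and 541 CPM in knockout and 641, 639 and 558 CPM in wild type (log2 -0.58, edgeR adjusted p = 0.219). Igj, the joining chain of secreted IgM and IgA, was at 32.9, 21.3 and 11.1 CPM in knockout and 7.95, 13.3 and 4.91 CPM in wild type (log2 1.31, edgeR adjusted p = 0.325), with knockout library 4 below wild-type library 3. All 3 were picked with their values in view.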
